A study of Homo sapiens with 20 samples.

Results

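HGF, its receptor MET and the inhibitors of its activators, SPINT1 and SPINT2, were followed in U937T cells in which EVI1 was switched on by tet withdrawal. All probe sets of the Affymetrix HG-U133 Plus 2.0 array annotated to one of these 4 genes and to no other symbol were taken, which gave 12 of 54675 probe sets, for 4 of 19775 genes: 5 for HGF, 4 for MET, 2 for SPINT1 and 1 for SPINT2. Of these, 11 passed an intensity filter (a mean log2 value no lower than 3 in each clone at 24 and at 48 h and in each control line at 48 h) and were among the 35610 probe sets tested, and the MET probe set 213816_s_at did not pass this filter, because it read 2.92 and 2.89 in E10 at 48 h. HGF had been chosen because of its fall at 24 and 48 h in the EVI1 clones, with the responses of the control lines known, so the responses at 24 and 48 h are described here without a test.

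U937 is a human leukemia cell line of monocytic type, and U937T cells are the derivative in which transgenes can be kept silent by tetracycline (tet). U937T_EVI1-HA clones E10 and E14 carry the human EVI1 cDNA with an HA tag under tet control and were harvested at 6, 12, 24 and 48 h with or without tet. The controls were the empty vector clone P2 (U937T_vec) and the parental U937T cells, both harvested at 48 h with or without tet. All 4 lines grew in puromycin and had been kept in tet beforehand, and E10, E14 and P2, but not U937T, also received hygromycin. E10, E14 and P2 are each a single clone, and each line, time and culture gave 1 array (20 in all), so that EVI1 induction has the 2 clones E10 and E14 as its replicates and tet withdrawal alone has the 2 control lines. P-values measure the spread between these few cultures. No control cultures were taken at 6, 12 or 24 h, so tet withdrawal and EVI1 cannot be told apart at these times.

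Hepatocyte growth factor is secreted as an inactive precursor, which serine proteases such as HGFAC, matriptase (ST14) and hepsin (HPN) cleave into the active ligand of the receptor tyrosine kinase MET. SPINT1 and SPINT2 encode membrane-bound Kunitz-type inhibitors that block these proteases. HGF is best known as a product of mesenchymal cells that acts on epithelia, and blood cells of the myeloid lineage also produce it.

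The sequences just upstream of HGF and MET are shown because HGF fell after tet withdrawal on part of its probe sets, while MET varied little. The difference between ligand and receptor was not tested, and MET levels are not shown to exceed background. The sequences are the 250 bases before the annotated RefSeq start (GRCh38.p14), read 5′ to 3′ on the strand of the gene, with CG dinucleotides in capitals. HGF lies on the minus strand at chr7:81770048-81770297 and MET on the plus strand at chr7:116671946-116672195.
HGF: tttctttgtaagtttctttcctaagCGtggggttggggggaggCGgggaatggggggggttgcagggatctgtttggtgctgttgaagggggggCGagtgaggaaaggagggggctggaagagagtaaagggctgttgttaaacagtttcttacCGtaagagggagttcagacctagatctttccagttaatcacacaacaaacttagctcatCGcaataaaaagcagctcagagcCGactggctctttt
MET: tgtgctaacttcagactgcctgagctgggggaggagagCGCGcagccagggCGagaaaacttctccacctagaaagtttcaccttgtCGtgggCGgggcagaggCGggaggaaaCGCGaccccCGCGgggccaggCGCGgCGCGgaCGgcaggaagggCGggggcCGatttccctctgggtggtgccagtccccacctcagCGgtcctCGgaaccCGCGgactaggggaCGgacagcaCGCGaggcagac
The HGF window held 6 CG dinucleotides and the MET window 24. Among the 35116 promoters of the same length in the RefSeq table the median was 11, and 41.1% held at most as many as HGF against 78.4% for MET. The SPINT1 table entries, which are 2 alternative starts, held 35 and 22 CG dinucleotides. GACAAGATA, from the motif of the first zinc finger domain of EVI1, and GAAGATGAG, from that of the second, were searched on both strands, and neither contains the other. Neither set of letters was in the windows of HGF, MET or SPINT1, and 0.085% and 0.265% of all promoters held them. SPINT2 was not among the promoters given and was not searched. The paper reports that EVI1 bound a proximal part of the MS4A3 promoter that held none of the consensus sites known before. No binding was measured on these arrays.

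The labels were checked on MECOM, the gene that encodes EVI1. Its probe set 221884_at read 7.13 in E10 and 7.15 in E14 at 48 h with tet, and 10.51 and 9.98 without tet. The control lines read 6.90 with and 5.91 without tet in P2 and 6.48 and 6.53 in U937T, changes of -0.99 and 0.05. With tet the clones thus read above the control lines, and whether the transgene was fully silent was not tested. The other 4 MECOM probe sets changed by -0.21 to 0.37 in the clones at 48 h, and 3 of them were under the filter. The array medians lay between 5.25 and 5.35, and the difference between the 3′ and 5′ control probe sets for actin and GAPDH, which rises as RNA degrades, ran from 0.19 to 1.52 (median 0.71), with its highest values in E14 at 24 h. Of the 10 myeloid markers 8 were tested, and LYZ and CEBPA had mean intensities of 11.94 and 11.57, whereas MPO and FCGR1A, named after their values were seen, stood at 4.97 and 3.47. Levels are log2 intensities and are compared only within a probe set, since probe sets differ in their response to the same amount of RNA.

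HGF mRNA, the ligand, fell strongly in both EVI1 clones after tet withdrawal on 3 of its 5 probe sets, 209960_at, 210755_at and 210997_at. On 210755_at, E10 cells with tet read 7.75, 6.71, 6.41 and 6.03 at 6, 12, 24 and 48 h, and E14 cells 8.26, 7.69, 6.61 and 6.30. Without tet, E10 cells read 7.33, 6.07, 4.09 and 3.32 and E14 cells 7.79, 6.49, 4.23 and 3.39. Every culture without tet lay below the culture of the same clone and time with tet, and the gap widened between 12 and 24 h. At 48 h the fall was 6.56-fold in E10 and 7.51-fold in E14, and at 24 h it was 4.98-fold and 5.23-fold. The files hold no detection calls, so the lowest HGF readings, here and on 209960_at and 210997_at, are not shown to exceed background, and where they do not the folds are only lower bounds. In the control lines the same probe set read 6.37 with and 6.02 without tet in P2 and 6.36 and 6.25 in U937T, changes of -0.36 and -0.11 that lay apart from those of both clones.

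The probe set 209960_at gave much the same course. With tet it read 7.59, 6.76, 6.47 and 6.11 in E10 and 7.90, 7.39, 6.85 and 6.33 in E14. Without tet it read 7.27, 6.12, 4.27 and 3.45 in E10 and 7.38, 6.31, 4.14 and 3.67 in E14. At 48 h the clones were 6.30-fold and 6.35-fold lower without tet. The control lines differed from each other here, with 7.0 and 6.22 in P2 (a change of -0.78) and 6.46 and 6.60 in U937T (0.15). The mean change of the clones minus that of the controls was -2.35 on the log2 scale, against -2.58 for 210755_at.

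On 210997_at the control lines took part in the fall. Without tet it read 5.77, 4.87, 3.66 and 2.86 in E10 and 5.91, 5.73, 3.82 and 2.93 in E14, while with tet the values were 6.03, 5.80, 5.29 and 4.73 in E10 and 6.50, 6.44, 6.21 and 5.03 in E14. The clones were 3.65-fold and 4.30-fold lower at 48 h, and the control lines changed by -0.67 and -0.61. Both clones still fell further than either control line, with a difference of the means of -1.34.

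The 2 remaining HGF probe sets did not share this course. On 210998_s_at the change at 48 h was -0.67 in E10, -0.83 in E14, -0.58 in P2 and -0.52 in U937T, so that the clones lay only just beyond the control lines. On 209961_s_at, the HGF probe set with the highest mean, E10 read 6.54 with and 6.00 without tet at 48 h, E14 6.31 and 5.91, P2 6.65 and 6.36, and U937T 6.51 and 6.61. Its largest change in any clone or time was -0.54. According to the annotation 210997_at and 210998_s_at were designed from one and the same transcript entry, yet the former changed by -1.87 and -2.10 in the clones and the latter by -0.67 and -0.83. The suffix _s_at marks probe sets whose probes can match more than 1 transcript, and the probe sequences were not used here.

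**Figure D1:**
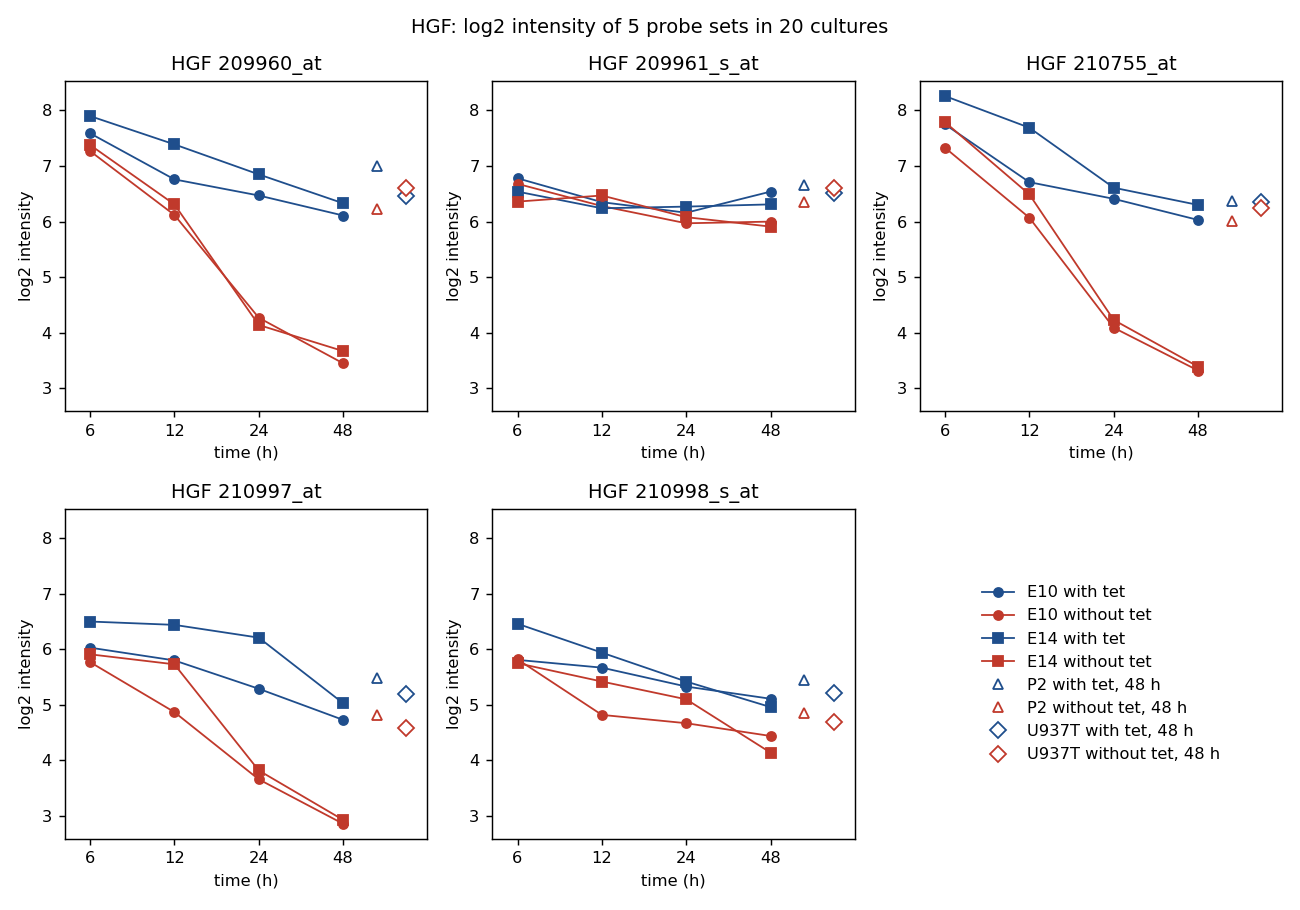
Log2 intensity of the 5 HGF probe sets (vertical axes, same scale in each panel) in the 20 cultures against time after the change of medium in hours, with the times evenly spaced. Filled circles and squares joined by lines are E10 and E14, open symbols at the right of each panel are P2 and U937T at 48 h, blue is with tet and red without, and each point is 1 array. On 209960_at, 210755_at and 210997_at the red lines of both clones lie far below the blue lines at 24 and 48 h. On 209961_s_at they lie only a little below, with changes from -0.19 to -0.54 at these times.

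The course of the 3 falling probe sets was shared closely over the 20 arrays, with Pearson correlations of 0.986 between 209960_at and 210755_at, 0.951 between 209960_at and 210997_at and 0.959 between 210755_at and 210997_at. Those of 210998_s_at with these 3 were 0.827 to 0.899, and those of 209961_s_at with the other 4 were 0.579 to 0.782. These arrays share lines, times and normalization, so the correlations are given as a description.

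Ordered by level on 210755_at, the groups ran from 8.01 ± 0.36 (SD, n = 2, as for all groups) in the clones with tet at 6 h to 3.35 ± 0.05 without tet at 48 h. Below the highest group came the clones without tet at 6 h (7.56 ± 0.33) and with tet at 12 h (7.20 ± 0.69), and in this stretch each group overlapped its neighbour. The clones with tet at 24 h followed at 6.51 ± 0.15 and the control lines with tet at 6.37 ± 0.01. The control lines with tet, the clones without tet at 12 h (6.28 ± 0.30), the clones with tet at 48 h (6.17 ± 0.19) and the control lines without tet (6.13 ± 0.17) again overlapped from neighbour to neighbour. The clones without tet at 24 h (4.16 ± 0.10) and 48 h stood apart from all these and from each other.

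Against all probe sets, 3 of the 11 tested were at least 2-fold lower without tet at both 24 and 48 h in both clones, where 0.48% of the 35610 were, and nothing is read from this because HGF was chosen on this contrast. The members nearest to the 2-fold limit at 48 h were 210997_at inside it, with -1.87 and -2.10, and SPINT2 just outside, with -1.01 in E10 and -0.86 in E14. Lower levels in all 4 lines at 48 h were found for 4 of 11 (210755_at, 210997_at, 210998_s_at and SPINT2) and for 19.4% of all. The change of both clones lay below that of both control lines for 6 of 11 (the 5 HGF probe sets and SPINT2) and for 22.3% of all. The choice of HGF used these responses at 48 h, and its 5 probe sets measure the same gene, so nothing is read from these counts either. As whole cultures were measured, fewer cells of a type and less RNA per cell cannot be told apart.

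**Figure D2:**
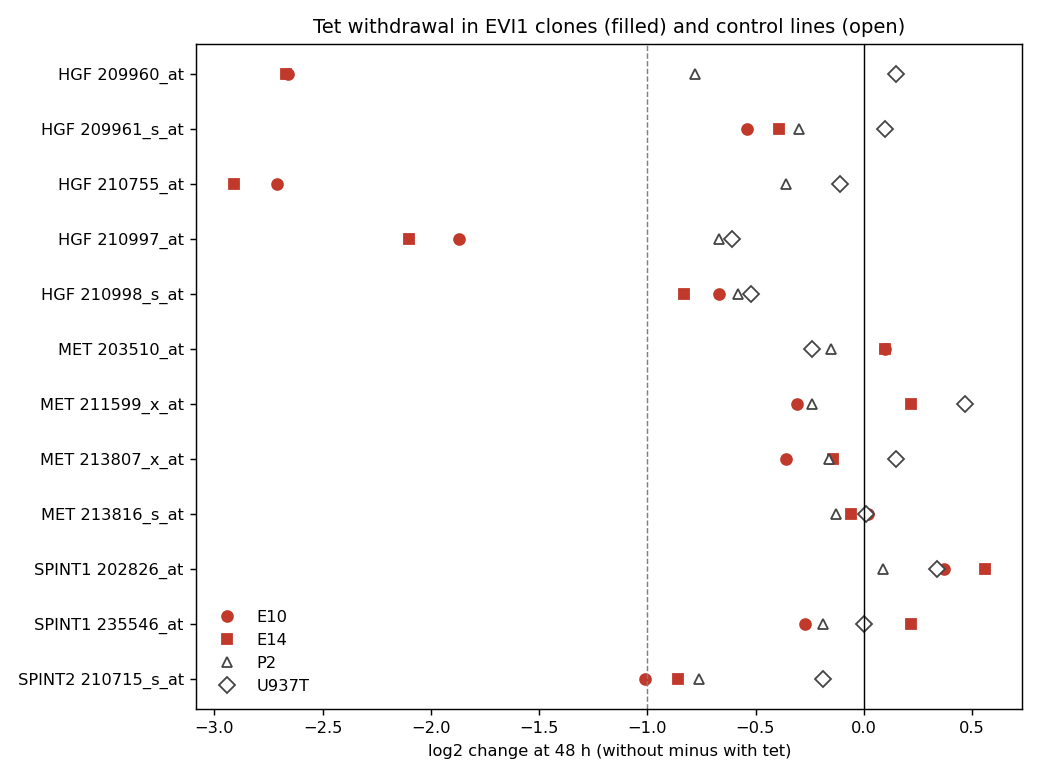
Log2 change after 48 h (without minus with tet, horizontal axis) for the 12 probe sets of HGF, MET, SPINT1 and SPINT2, 1 point per line with filled symbols for E10 and E14 and open symbols for P2 and U937T. The dashed line marks a 2-fold fall. Both clones lie beyond it on 3 HGF probe sets only, E10 alone does so for SPINT2 at -1.01, and no control line does.

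The first hours had not entered the choice of HGF and were tested. At 6 h the HGF changes were -0.44 on 210755_at (standard error 0.18), -0.42 on 209960_at (0.19), -0.42 on 210997_at (0.19), -0.35 on 210998_s_at and -0.14 on 209961_s_at. None of the 11 probe sets passed an adjusted p under 0.05 in limma, as did none of all 35610 (0%), and 3 of 11, those of the later fall, had an unadjusted p under 0.05, compared with 4.26% of all. The adjusted p of these 3 was 0.97 each in limma. All 3 measure the same gene, so nothing is read from this count. On 210998_s_at the mean rested on E14 (-0.71), since E10 changed by 0.01.

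At 12 h HGF was lower by more on the same 3 probe sets. The change was -0.64 in E10 and -1.19 in E14 on 210755_at, a mean of -0.92 with a standard error of 0.18 (adjusted p = 0.29 in limma). The means were -0.86 on 209960_at (adjusted p = 0.48 in limma) and -0.82 on 210997_at (adjusted p = 0.55 in limma). None of the 11 was called at 12 h, and 8 of all probe sets were (0.0225%), while 5 of 11 had an unadjusted p under 0.05, compared with 4.90% of all. The others of these 5 were 210998_s_at (-0.69) and MET 203510_at (-0.26). All but the MET probe set measure HGF, so nothing is read from this count. In E14 the 3′ to 5′ difference at 12 h was 1.02 with and 0.46 without tet. With this difference as a covariate the changes were as large, -0.93 on 210755_at, -0.89 on 209960_at, -0.84 on 210997_at and -0.70 on 210998_s_at, and again none was called in limma. Between 6 and 12 h the response of no member changed by an adjusted or unadjusted p under 0.05 in limma, where 0.00562% of all did by the former and 5.89% by the latter.

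HGF also fell with time in culture in the clones with tet, where EVI1 was not induced. From 6 to 48 h with tet, E10 and E14 cells changed by -1.72 and -1.96 on 210755_at, a mean of -1.84 (standard error 0.18, adjusted p = 0.00045 in limma). On 209960_at they changed by -1.48 and -1.57 (mean -1.53, standard error 0.19, adjusted p = 0.0019 in limma). On 210997_at they changed by -1.30 and -1.46 (mean -1.38, adjusted p = 0.0027 in limma). Thus the 48 h cultures with tet, against which the fall at 48 h was read, were themselves well below those at 6 h.

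HGF 210998_s_at fell by 1.1 in the mean (adjusted p = 0.011 in limma), with -0.70 in E10 and -1.50 in E14. Without E14 it no longer passed the test (-0.70, adjusted p = 0.13 in limma). The last HGF probe set, 209961_s_at, changed by -0.24 and SPINT2 by -0.38, and neither passed (adjusted p = 0.35 and 0.20 in limma). In all, 4 of 11 probe sets were called lower and none higher, compared with 3.39% lower and 2.80% higher among all. These 4 all measure HGF and so are not separate members. The 48 h cultures with tet had also entered the choice of HGF.

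The 3′ to 5′ difference moved with time as well, from 0.19 to 0.66 in E10 and from 0.45 to 0.75 in E14. With it as a covariate all 4 HGF probe sets were still called, with changes of -1.45 on 209960_at, -1.80 on 210755_at, -1.36 on 210997_at and -1.07 on 210998_s_at and adjusted p from 0.0024 to 0.043 in limma. Of the myeloid markers, CSF1R fell by 1.86 over the same time (adjusted p = 0.0024 in limma; 0.0018 to 0.013 over all alternatives run), and CEBPA (-0.35) and PTPRC (-0.65) were called at an adjusted p of 0.049 each in limma but not with the covariate (-0.28 and -0.45, adjusted p = 0.15 and 0.17) or without E10 (0.76 and 0.60) or E14 (0.54 and 0.073). With no filter neither was called (0.057 and 0.052), and PTPRC was not called with no block (0.082) or without P2 or U937T (0.054 each). The summed level of these markers, as a mean over the 8, was 8.98 to 9.06 at 6 h and 8.51 to 8.68 at 48 h with tet, and its part in the HGF change was not tested. At 48 h without tet this mean was 9.03 to 9.11 in the clones and 8.76 to 8.85 in the control lines. Its relation to HGF was not tested there either. The mean joins markers whose changes after tet withdrawal differed in sign in the clones at 48 h. CSF1R, for instance, changed by 0.84 in E10 and 1.09 in E14, and MPO by -0.41 and -0.06. In the control lines CSF1R rose as well, by 0.57 in P2 and 0.66 in U937T, and MPO changed by 0.07 and -0.07.

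With tet, HGF did not set the clones apart from the controls by an adjusted p. At 48 h with tet 209960_at read 6.11 in E10 and 6.33 in E14 against 7.0 in P2 and 6.46 in U937T, a difference of -0.51 (standard error 0.22, adjusted p = 0.76 in limma). The clones were lower without overlap, but the control lines differed more from each other than U937T did from E14. None of the 11 probe sets was called here, and 3 of all were (0.00842%), while 2 of 11 had an unadjusted p under 0.05, compared with 6.42% of all.

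The second of these was SPINT1 202826_at, an inhibitor of the proteases that activate HGF. It read 5.60 in E10 and 5.54 in E14 at 48 h with tet, 6.72 in P2 and 6.11 in U937T, a difference of -0.85 (standard error 0.17, adjusted p = 0.22 in limma). The standard error rests on a spread shared by all groups, most of them of the clones. Here the SD was 0.44 in the control lines and 0.04 in the clones. Over the whole series the 16 clone arrays lay between 5.46 and 6.10 and the 4 control arrays between 6.11 and 6.81, so that the ranges only just did not meet. The value depended on the control line, with -1.15 against P2 alone (adjusted p = 0.016 in limma) and -0.54 against U937T alone (adjusted p = 0.58 in limma), where the lone control array is assumed to vary like the other groups.

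With tet SPINT1 202826_at stayed between 5.46 and 5.63 in both clones at all times. Without tet E10 read 5.97 and E14 6.10 at 48 h, changes of 0.37 and 0.56, and the change at 24 h was 0.19 and 0.32. P2 changed by 0.09 and U937T by 0.34 at 48 h, so that U937T nearly reached E10. The other SPINT1 probe set, 235546_at, stayed between 6.25 and 6.89 in all arrays and changed at 48 h by -0.27 in E10, 0.22 in E14, -0.19 in P2 and 0.00 in U937T. The 2 probe sets of SPINT1 thus did not give a shared direction in E10. At 48 h with tet the clones minus the control lines gave -0.09 on 235546_at (adjusted p = 0.94 in limma), against -0.85 on 202826_at.

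SPINT2 has a broad inhibitor action on HGFAC, matriptase and hepsin and was read by 210715_s_at alone. With tet it read 5.63, 5.07, 5.54 and 5.25 in E10 and 5.47, 5.51, 5.47 and 5.09 in E14 at 6, 12, 24 and 48 h. Without tet it read 5.17, 4.74, 4.90 and 4.23 in E10 and 5.35, 5.15, 4.94 and 4.22 in E14. Every pair was lower without tet, and the change at 48 h, -1.01 and -0.86, was the largest of each clone.

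P2 also had less SPINT2 without tet (5.39 and 4.63, a change of -0.76), whereas U937T changed by -0.19 (5.24 and 5.05). The change of P2 was thus nearer to that of the clones than to that of U937T. The mean change of the clones minus that of the controls was -0.46. At 6 h the change was -0.29 and at 12 h -0.34, neither of which was called (adjusted p = 0.97 at 6 h in limma). The groups with the lowest SPINT2 were the clones without tet at 48 h, 4.23 ± 0.01 (SD, n = 2), and above them the control lines without tet (4.84 ± 0.30), the clones without tet at 24 h (4.92 ± 0.03) and at 12 h (4.94 ± 0.29), the last 3 of which overlapped.

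**Figure D3:**
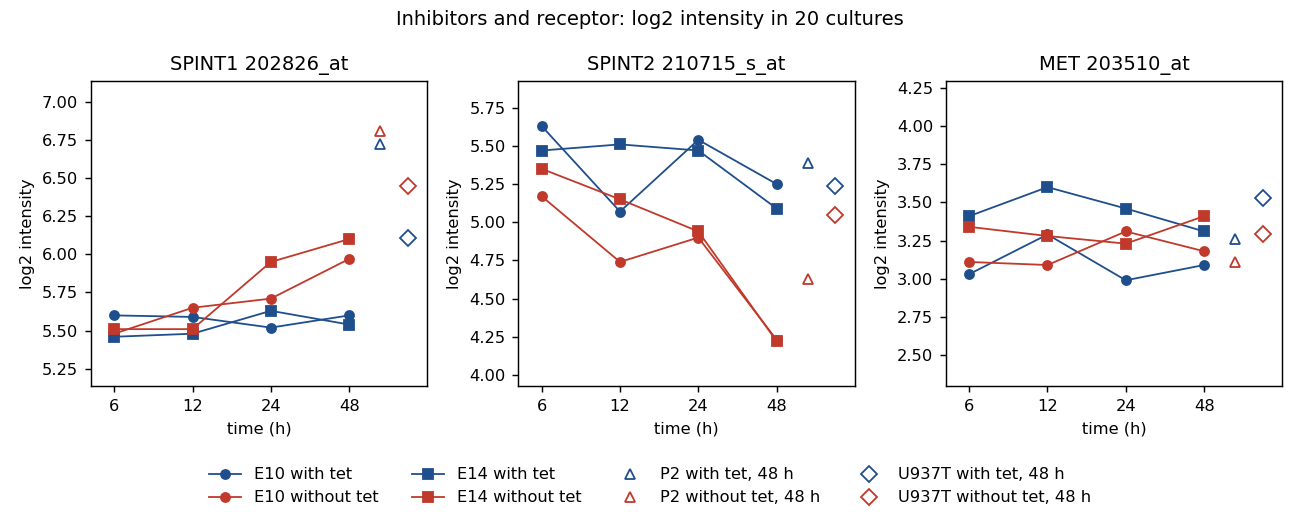
Log2 intensity of SPINT1 202826_at, SPINT2 210715_s_at and MET 203510_at in the 20 cultures against time in hours (evenly spaced), with colours and symbols by tet and line and each vertical axis of the same length but a different start. The 4 control points of SPINT1 lie above the 16 clone points, SPINT2 ends near 4.2 in both clones without tet, and the lines of MET cross.

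MET, the receptor of HGF, varied little on any of its probe sets. Over the 20 arrays 203510_at lay between 2.99 and 3.60, 213816_s_at between 2.89 and 3.49, 213807_x_at between 3.67 and 4.22 and 211599_x_at between 5.29 and 5.84. These values, too, are not shown to exceed background, and _x_at marks probe sets whose probes may also bind other transcripts. At 48 h the changes on 211599_x_at were -0.31 in E10, 0.22 in E14, -0.24 in P2 and 0.47 in U937T, without a direction shared by clones or controls. On 203510_at both clones changed by 0.10, and P2 and U937T by -0.15 and -0.24. No MET probe set was called in any of the comparisons tested in limma.

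The genes whose levels ran closest to those of each member over the 20 arrays were taken for its probe set of highest mean. For SPINT2 they were PARVB (Pearson r = 0.907), IQCK (0.902) and PREP (0.898). For HGF 209961_s_at they were ATE1 (0.897), RFX2 (0.887) and SERPINB10 (0.887), for MET 211599_x_at AQP3 (0.892), LOC105369167 (0.884) and IKBKB-DT (0.879), and for SPINT1 235546_at FGF6 (0.796), PTGIS (0.793) and FAM221B (0.790). For the falling HGF probe set 210755_at, chosen after its values were seen, they were CLEC5A (0.964), BMP2K (0.962) and MS4A7 (0.958). The arrays share lines and times, so these values describe likeness of pattern only.

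Around HGF and MET, 51 of 59 genes in 5 lists were tested at 48 h for the EVI1-specific response, the change of the clones minus that of the controls. None of the 51 rose or fell by an adjusted p under 0.05 in limma, and 3 had an unadjusted p under 0.05. Among 17860 genes 1.66% were called higher, 2.11% lower and 16.4% had an unadjusted p under 0.05. These shares would give few calls among 51 genes, so nothing is read from their absence. Each gene was read by its probe set of highest mean, so changes on other probe sets could be missed. For HGF this rule picks 209961_s_at, not a probe set of the strong fall. The proteases that activate HGF (10 of 10 tested) had a median of 0.01, with 0.21 for F12 (coagulation factor XII) and -0.24 for PLAU (urokinase). The Kunitz-domain and serpin relatives of the inhibitors (7 of 10) had a median of 0.10, with 0.10 for APLP2 and -0.14 for WFIKKN1. The relatives of ligand and receptor and the co-receptors of MET (9 of 10) had a median of -0.07, with -0.33 for the co-receptor CD44 and 0.11 for SDC4.

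The adaptors and effectors of MET (16 of 19 tested) had a median of 0.09, with -0.02 for the adaptor GRB2 and -0.01 for the phosphatase PTPN11. The negative regulators of MET (9 of 10) had a median of 0.25, with 0.25 for CBL, the ubiquitin ligase of the receptor, and 0.08 for its partner SH3KBP1. The median of all genes was -0.004. LPA, TFPI and TFPI2 were under the filter, and SPINT4, PIK3CA, CRK and PTPRJ were among those not tested here.

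**Figure D4:**
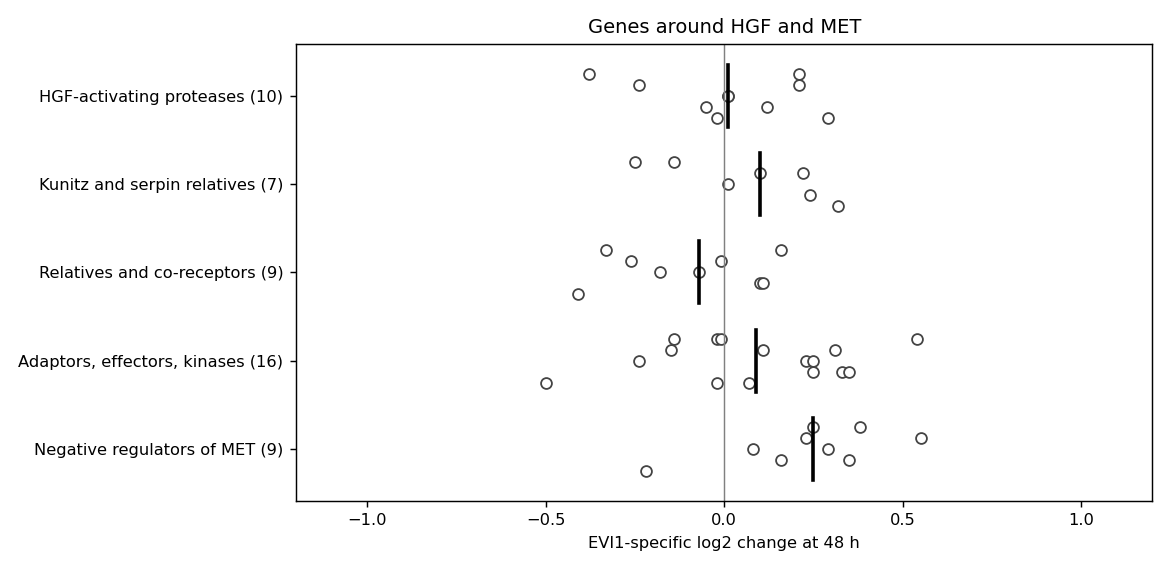
EVI1-specific log2 change at 48 h (horizontal axis) of the tested genes in 5 lists around HGF and MET, with the number of genes in parentheses. Each circle is 1 gene, spread vertically only to keep circles apart, and black bars mark the medians, which run from -0.07 to 0.25.

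With time in culture with tet 6 of the 51 were called, 4 higher and 2 lower, compared with 2.45% and 3.18% of all genes. They were F12 (0.59), APP (0.50), DUSP6 (0.56), INPP5D (0.43), PLAU (-0.58) and NRP1 (-0.61), named after their values were seen. None of the 6 was called when E10 was left out (adjusted p from 0.19 to 0.73 in limma) or E14 (0.16 to 0.55). With the covariate for the 3′ to 5′ difference F12 (0.41), APP (0.35), NRP1 (-0.64) and DUSP6 (0.51) were not called either (adjusted p from 0.052 to 0.14 in limma), although the change of NRP1 was no smaller.

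Markers of other cells that can be a source of HGF or of its receptor did not pass the test at 48 h, apart from 1 lymphoid gene. Of the fibroblast markers 6 of 8 were tested and none was called at 48 h in limma, with 1 at an unadjusted p under 0.05 (PDGFRA, -0.51), and LUM and FAP were under the filter. Their mean level was 4.98 to 5.07 with and 4.89 to 4.94 without tet in the clones at 48 h, and 5.05 to 5.10 in the controls, and its part in the fall of HGF was not tested. Of the epithelial markers 6 of 8 were tested and none was called in limma, at an unadjusted p under 0.05 neither, EPCAM and CDH1 were under the filter, and the mean level was 5.56 to 5.79 in all groups. Of the 5 lymphoid markers tested, CD3E was called higher at 48 h in the clones, by 0.89 more than in the control lines (adjusted p = 0.014 in limma), but not with any 1 of the 4 lines left out (0.055 to 0.51).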

How the data were processed

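The 20 arrays hold RNA of 1 culture each. The deposited values are log2 intensities after Robust Multi-array Analysis by the authors (background correction, quantile normalization, median polish); the software version is not given in the sources used here. They were used without further normalization. Of the 54675 probe sets, 41097 carried 1 gene symbol, 1801 several and 11777 none; 46203 had a mean of at least 3 in each clone at 24 and 48 h and in each control line, 35610 of them with 1 symbol. All arrays were fitted in limma 3.58.1 (R 4.3.3) with 10 groups and the line as a fixed block (8 residual degrees of freedom), or without the block for clones against control lines (10). P-values were adjusted over 35610 probe sets (Benjamini-Hochberg), those of list genes too, and each of the 17860 genes was read by its probe set of highest mean. The scripts were tested on simulated data. Pairing comes from the cell line; deviations of E10 minus E14 correlated with a median of 0.11 over 28 pairs of groups (-0.22 to 0.64), and those of P2 minus U937T with -0.24.

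Every member probe set is described. List genes are named by rule: up to 3 called with the largest EVI1-specific change, and the 2 of highest mean not called. Likeness of pattern was taken over 20 arrays. Alternatives were no filter, a mean of at least 5, centring on the array median, trend and robust estimation, all probe sets, a covariate for the 3′ to 5′ difference, the block, leaving out each line and, chosen after seeing the data, leaving out the E14 arrays at 12 and 24 h. The members and lists were chosen with earlier results of these data known. Precision is limited by the number of arrays.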

Additional observations from a re-analysis of the deposited data

Results flagged for a closer look

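On MET 203510_at the clones and the control lines moved in opposite directions at 48 h, by 0.10 in both E10 and E14 and by -0.15 in P2 and -0.24 in U937T. The difference of 0.29 was not tested, and the levels lay between 2.99 and 3.60 on all arrays.

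CD3E, which encodes a chain of the T cell receptor complex, rose more in the clones than in the control lines at 48 h, by 1.34 in E10 and 1.00 in E14 against 0.18 in P2 and 0.38 in U937T. The difference was 0.89 (standard error 0.17, adjusted p = 0.014 in limma), and CD3E was the only one of the 5 lymphoid markers tested that was called. Without E10 (adjusted p = 0.51), E14 (0.23), P2 (0.094) or U937T (0.055) it no longer passed in limma.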

How the results depend on the processing

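The 4 HGF probe sets that fell with time with tet passed under every alternative run except leaving out E14, which left 3 (3 to 4 over the lines left out). Counts over all probe sets depended more on the settings. At 6 h none was called, and 0 to 8 when a line was left out. At 12 h the 8 called became 4 with no replicate block, 0 when the E14 arrays of 12 and 24 h were removed, and 2 to 17 when a line was left out. For the clones against the control lines with tet the 3 called became 5 with the covariate, 1 without those E14 arrays, and 0 to 8 when a line was left out; with the line as a random block there were 3 (correlation 0.058). The 2205 called with time became 748 with the covariate and 186 to 2264 when a line was left out. The 1049 EVI1-specific calls became 544 without those E14 arrays and 80 to 535 when a line was left out. Leaving out E10 or E14 leaves 1 residual degree of freedom, and the lone clone is then assumed to vary like the control lines. Single values turned sign for HGF 209961_s_at at 12 h, with -0.073 without those E14 arrays and -0.073 to 0.225 when a line was left out, and for 210998_s_at at 6 h, with -0.714 to 0.006 (the latter without E14). The causes were not tested. Without the block no other call of a member changed.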
